A study of Mus musculus with 6 samples.

Results

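The guidance genes of the semaphorin, plexin, slit and netrin families were followed through the first steps of cartilage formation in the mouse hind limb. Members were taken by gene symbol alone: every array spot annotated to a single gene whose symbol begins with Sema and a digit, with Plxn or with Unc5, or is Nrp1, Nrp2, Slit1 to Slit3, Robo1 to Robo3, Ntn1, Ntn3, Ntn4, Dcc or Neo1. This gave 98 spots for 46 genes, out of 45220 spots and 19077 genes with a fitted value, and all 98 spots could be fitted. One of the 46, Unc50, encodes a protein of the Golgi apparatus that the letters of its symbol brought in, and 45 belong to the guidance families. Sema3g and Robo3 had no spot annotated to them and were not analysed here.

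The study compared 3 tissues microdissected from hind limbs of Swiss white mouse embryos: pre-condensed mesenchyme at 11.5 days post coitum (dpc, 4 hind limbs), mesenchymal condensation at 12.5 dpc (3 hind limbs) and cartilage anlagen at 13.5 dpc (4 hind limbs). The limbs of a time point formed 1 RNA pool, which was amplified linearly and labelled with Cy3 or Cy5. Two-colour arrays compared every time point with every other, 2 arrays for each comparison with exchanged dyes and 6 in all. Both arrays of a comparison hold RNA of identical pools. There is thus 1 sample per time point, no p-value is given, and errors below are technical.

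Semaphorins are ligands that are best known for repelling growing axons. Class 3 members are secreted and usually act through a neuropilin that binds the ligand and a plexin that signals, whereas most members of classes 4 to 7 are held in the membrane and bind plexins directly. Slits are secreted proteins that bind Robo receptors. Netrins are secreted proteins of the laminin superfamily, with Dcc and neogenin as receptors of attraction and the Unc5 proteins as receptors of repulsion. The same molecules also direct blood vessels and the migration and adhesion of cells outside the nervous system, and in the limb class 3 semaphorins and netrins are known as cues for ingrowing nerves and vessels.

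All values are log2 ratios of the later over the earlier time point. The comparison of 12.5 with 11.5 dpc is called the first step, that of 13.5 with 12.5 dpc the second step, and that of 13.5 with 11.5 dpc the whole interval. For each comparison the array with the later time point in Cy5 is given first and the array with the later time point in Cy3 second. A fitted value is the least-squares estimate from all 6 arrays, averaged over the spots of a gene, and is followed by a technical SE (6 arrays). The SE comes from the gene means on each array, so it leaves out disagreement between spots. Where a spot lacks arrays, the SE is not exactly that of the fitted value. The fit can then lie outside the direct gene means, as for Robo2 and Unc5c over the whole interval and Plxnc1 in the first step. The threshold of the methods, a 3-fold difference (1.58 on the log2 scale), was used as the call, and 2-fold was given beside it. A spot is called dim where, on at least 2 arrays, its value is the exact logarithm of a ratio between small whole numbers (none above 12). This mark stands in for weak signal and held for 26 of the 98 spots (26.5%), against 27.3% of all annotated spots.

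The labelled tissues were first set against their markers. Of 8 cartilage markers, 7 were higher by 3-fold or more over the whole interval, with a median of 4.01 over the list, and the exception was Sox9 at -0.40. All 6 mesenchyme markers were lower, with a median of -1.15. Markers of other cells that carry guidance receptors also differed over the same interval: the medians were -0.69 for endothelium (12 genes, 9 lower and 3 higher, range -1.81 to 0.45), -0.24 for neurons and axons (11 genes, 8 lower and 3 higher, range -1.93 to 1.35), 0.47 for Schwann cells (6 of 8 genes measured, 4 higher, range -0.13 to 1.95) and 0.68 for skeletal muscle (12 genes, 10 higher, range -0.42 to 3.03). The part of these cells in the results below was not tested. The ratios carry no absolute level, and in dissected tissue fewer cells of a type and less RNA per cell cannot be told apart.

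As means over their spots, the guidance genes stayed within 3-fold over the whole interval. Of the 46 genes, 0 were higher by 3-fold or more, where 2.93% of all genes were. As for lower values, 0 members and 2.57% of all genes passed 3-fold. These shares are small for a group of 46, so the counts of 0 do not set the members apart. Among the 98 single spots of members, 2 were 3-fold higher and 5 were 3-fold lower. At 2-fold, 5 were higher (10.9% of members, 7.43% of all genes) and 3 lower (6.52% of members, 8.5% of all genes). The higher ones were Unc5a, Plxna2, Plxnc1, Plxnd1 and Plxnb2, all receptors, and the lower ones were the slit receptors Robo1 and Robo2 and the ligand Sema4g. The median member stood at 0.28, against 0.07 over all genes. Above 0 were 28 of the 46 members and 10410 of all 19077 genes.

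The first step, from 11.5 to 12.5 dpc, held fewer differences. None of the members, 0 of 46, were 3-fold higher (1.24% of all genes) or 3-fold lower (0.299% of all genes). At 2-fold only Plxnc1 was higher (2.17% of members, 6.23% of all genes). Its fit was 1.03, but its direct gene means of 0.76 and 0.98 were under 2-fold. Sema3b and Unc5b were lower by 2-fold (4.35% of members, 2.56% of all genes). In the second step, from 12.5 to 13.5 dpc, Sema3b and Unc5b were at least 3-fold higher (4.35% of members, 1.35% of all genes) and 0 members were 3-fold lower (0.776% of all genes). At 2-fold 5 members were higher in this step, namely Sema3b, Unc5b, Unc5a, Plxnd1 and Unc5c (10.9% of members, 4.79% of all genes), and Robo2 and Sema3a were lower (4.35% of members, 3.7% of all genes). Without centring of the arrays the 2-fold counts were 7 higher and 0 lower in the first step and 2 higher in the second. The member medians were 0.04 and 0.09 in the 2 steps, against -0.01 and -0.04 over all genes.

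**Figure D1:**
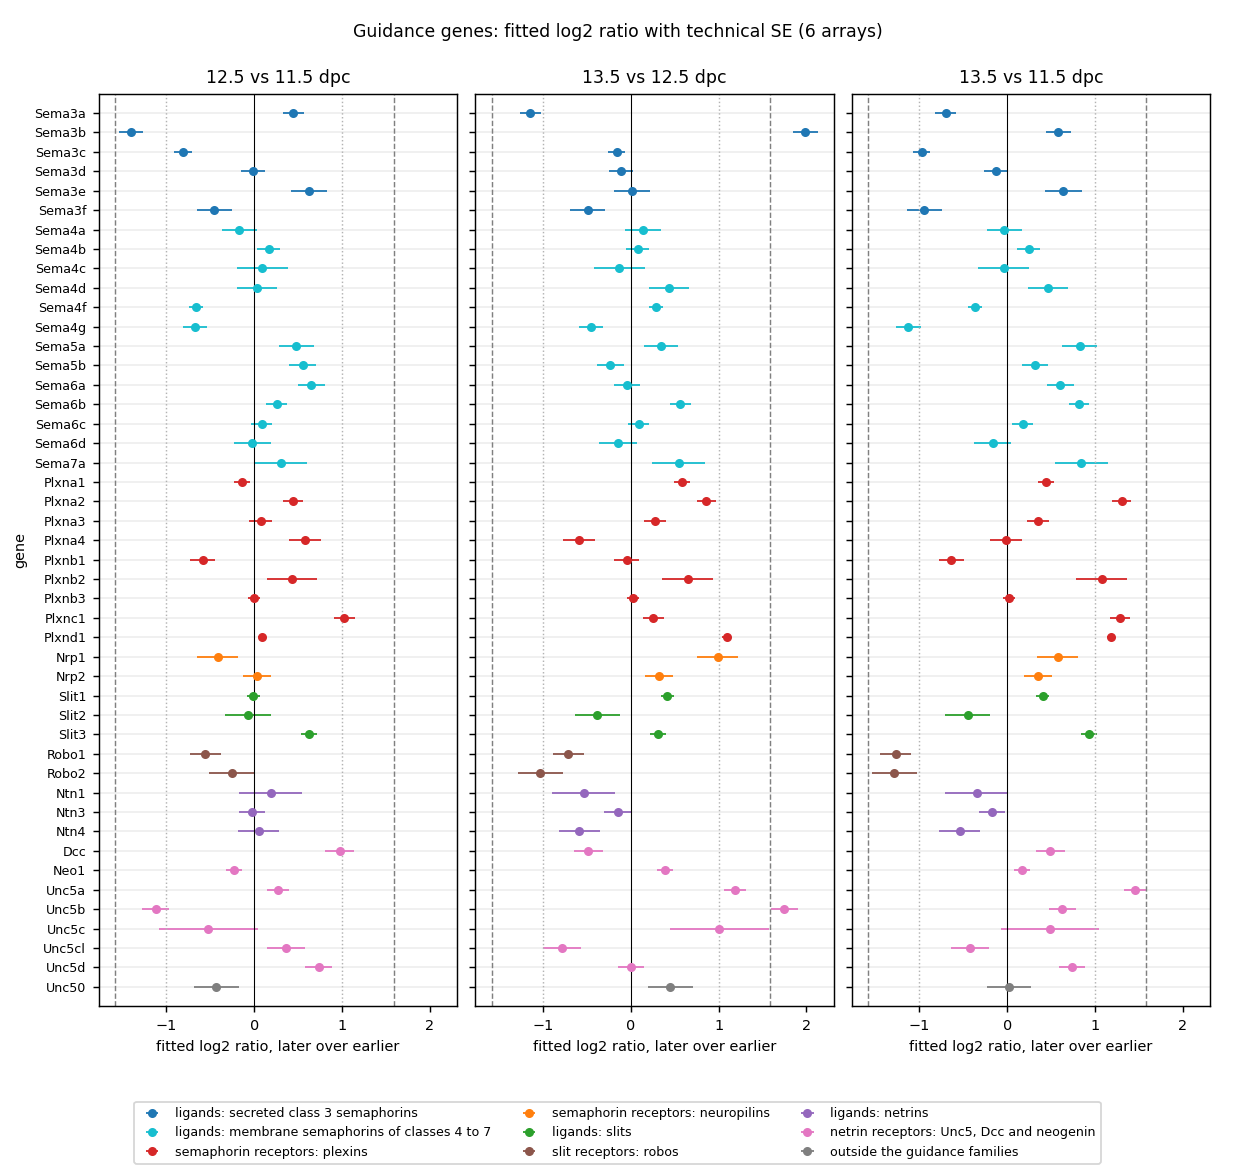
Fitted log2 ratio (horizontal axis, later over earlier time point) of each of the 46 genes in the 3 comparisons, coloured by role, with the technical SE as bars. Dotted lines mark 2-fold and dashed lines 3-fold. Sema3b and Unc5b are the 2 genes beyond 3-fold, both in the second step (13.5 against 12.5 dpc).

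Sema3b and Unc5b shared a course that few genes on the array had. Both were lower by 2-fold or more in the first step and higher by 2-fold or more in the second. This held for 40 of the 19077 genes (0.21%), and these 2 were the members among them (4.35% of 46). Each was read from 1 spot that was not dim and had a value on every array. The 2 steps share the 1 RNA pool of 12.5 dpc and are not independent. A deviation of that pool would shift them in opposite directions. The count of 2 members also depends on averaging over spots, since the only Nrp1 spot that was not dim read -1.01 and 1.03.

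Sema3b encodes a secreted class 3 semaphorin that signals through neuropilins. Its values were -1.60 and -1.20 in the first step, 1.72 and 2.26 in the second step, and 0.62 and 0.54 over the whole interval. The 3 comparisons together therefore placed 12.5 dpc lowest and 13.5 dpc highest. Within each comparison both arrays had the same sign, whichever dye carried the later time point. The fit gave -1.41 ± 0.14 for the first step (2.65-fold lower), 1.99 ± 0.14 for the second (3.97-fold higher) and 0.58 ± 0.14 over both. Its chromosomal neighbour Sema3f, a related ligand with 3 protein-coding genes between them on chromosome 9, did not share the course and had -0.45 ± 0.20 and -0.49 ± 0.20 in the 2 steps.

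Unc5b encodes a netrin receptor that is also known from endothelial cells. It had -1.40 and -0.95 in the first step, 1.55 and 1.84 in the second step, and 0.92 and 0.44 over the whole interval. The 3 comparisons together gave the same order of time points as for Sema3b, with the same sign on both arrays of each. The fitted values were -1.12 ± 0.15 (2.17-fold lower), 1.75 ± 0.15 (3.36-fold higher) and 0.63 ± 0.15. Over the same steps the 12 endothelial markers had medians of -0.43 and -0.26. Without centring of the arrays the first step came to -0.96 for Sema3b and -0.67 for Unc5b, under 2-fold for both, and Unc5b was under 2-fold in that step without its first array as well.

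Promoter windows are printed for 4 genes to show the range of sequence among members with large differences, Unc5b and Unc5a with higher and Robo1 and Sema3a with lower values at 13.5 than at 12.5 dpc. They run from 250 bases before to 50 bases after the transcription start, 5′ to 3′ on the strand of the gene, from RefSeq on GRCm38.p6. Capitals mark the GC box GGGCGG or its complement CCGCCC, searched on both strands, and matches that overlap were counted separately. The windows are chr10:60831532-60831831 (minus strand) for Unc5b, chr13:54949161-54949460 (plus strand) for Unc5a, chr16:72662899-72663198 (plus strand) for Robo1 and chr5:13396534-13396833 (plus strand) for Sema3a.
Unc5b: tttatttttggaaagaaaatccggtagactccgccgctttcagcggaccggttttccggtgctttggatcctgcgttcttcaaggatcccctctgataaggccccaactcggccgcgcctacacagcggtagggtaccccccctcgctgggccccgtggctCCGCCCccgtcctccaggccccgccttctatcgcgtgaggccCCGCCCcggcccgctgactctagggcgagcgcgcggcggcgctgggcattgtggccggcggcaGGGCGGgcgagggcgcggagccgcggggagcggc
Unc5a: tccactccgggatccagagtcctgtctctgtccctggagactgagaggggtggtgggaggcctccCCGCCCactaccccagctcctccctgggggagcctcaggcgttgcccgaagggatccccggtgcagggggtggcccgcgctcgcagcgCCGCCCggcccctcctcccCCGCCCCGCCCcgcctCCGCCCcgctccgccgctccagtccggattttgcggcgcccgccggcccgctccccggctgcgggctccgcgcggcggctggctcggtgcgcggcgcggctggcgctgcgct
Robo1: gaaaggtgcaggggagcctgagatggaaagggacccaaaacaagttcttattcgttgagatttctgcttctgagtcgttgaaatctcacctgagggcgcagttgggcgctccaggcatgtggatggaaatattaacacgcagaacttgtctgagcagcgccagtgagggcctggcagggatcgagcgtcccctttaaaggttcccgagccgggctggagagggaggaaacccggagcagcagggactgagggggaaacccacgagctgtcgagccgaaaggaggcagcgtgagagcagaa
Sema3a: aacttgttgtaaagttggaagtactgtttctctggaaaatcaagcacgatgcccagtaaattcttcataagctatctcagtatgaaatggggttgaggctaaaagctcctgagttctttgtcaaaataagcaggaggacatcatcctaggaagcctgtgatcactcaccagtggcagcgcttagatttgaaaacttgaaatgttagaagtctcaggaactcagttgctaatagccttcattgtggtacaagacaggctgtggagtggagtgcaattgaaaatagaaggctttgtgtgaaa

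Unc5a held 5 GC boxes and Unc5b 3, and the windows of Robo1 and Sema3a held 0. The pattern did not divide the members by direction, since Unc5c, higher in the second step, also had 0 and Sema4g, lower at 13.5 dpc, had 4. A promoter window was present in the table for 37 member genes, in 50 windows, and not for Sema3b. A GC box occurred in 70.0% of the member windows and in 35.7% of all 32851 windows. The member windows were also richer in G and C, with a median of 64.8% against 52.7%. The TATA sequence TATAAA occurred in 2.0% of member windows and 13.6% of all windows. The letters AACAAT, bound by Sox factors, occurred in 4.0% and 10.7%, and TGTGGT, bound by Runx factors, in 14.0% and 16.8%. The E-box letters CANNTG occurred in 52.0% and 72.3%. Windows of a gene with several starts were counted separately, and a match is a description of letters only.

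Over the 6 measured class 3 semaphorins, Sema3b included, the median was -0.41 over the whole interval, with 4 genes below 0 and 2 above. Sema3a, the ligand that repels sensory and sympathetic axons, had its highest value at 12.5 dpc. Its arrays read 0.32 and 0.57 for the first step, -1.41 and -0.88 for the second, and -0.65 and -0.75 over both. The fit gave 0.44 ± 0.12, -1.15 ± 0.12 (2.21-fold lower) and -0.70 ± 0.12. In the second step its 4 spots ran from -1.84 to -0.34, all lower at 13.5 dpc, and the spot nearest 0 was dim.

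Sema3c, a ligand known from the outflow tract of the heart, was already lower at 12.5 dpc, with -0.81 ± 0.10 in the first step and -0.16 ± 0.10 in the second. Over both steps it stood at -0.97 ± 0.10, and its 2 spots read -1.26 and -0.69. Sema3f had -0.95 ± 0.20 over both steps, and its 2 spots, neither dim, read -1.51 and -0.38. Sema3e, which binds plexin D1 without a neuropilin, had 0.64 ± 0.21, and Sema3d, adjacent to Sema3a on chromosome 5, had -0.13 ± 0.13. Of the Sema3e spots, those that were not dim read 1.16 and 0.56 and the dim ones 0.12 and 0.71. The spot at 1.16 also passed 2-fold in the first step, at 1.05. Thus the class held ligands in opposite directions. As means over spots, none but Sema3b and Sema3a reached 2-fold in a comparison.

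Over the 13 semaphorins of classes 4 to 7 the median was 0.24 over the whole interval. Sema4g, a transmembrane ligand, was the one member of these classes past 2-fold. It read -0.82 and -1.46 over the whole interval, -0.75 and -0.57 for the first step, and -0.53 and -0.35 for the second. All 6 arrays showed it lower at the later time point, and the fit over both steps was -1.13 ± 0.14 (2.19-fold lower), which was -0.96 without the second array of the whole interval. Sema7a, which is anchored to the membrane by a lipid, had 0.84 ± 0.30, Sema5a 0.82 ± 0.20 and Sema6b 0.82 ± 0.12. The 12 genes other than Sema4g ran from -0.37 for Sema4f to 0.84 for Sema7a.

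The plexins, which carry the semaphorin signal into the cell, held 4 of the 5 members that were 2-fold higher at 13.5 than at 11.5 dpc. Over the 9 plexins the median was 0.44, with 7 above 0 and 2 below. Plxnd1, the plexin best known from blood vessels, had -0.00 and 0.05 for the first step, 1.00 and 1.05 for the second, and 1.22 and 1.27 over both. The paired arrays lay 0.05 apart in each comparison, and the difference lay in the second step. The fit gave 0.09 ± 0.05, 1.09 ± 0.05 (2.13-fold higher) and 1.18 ± 0.05 (2.27-fold higher). Over the same interval 9 of the 12 endothelial markers were below 0, with the median of -0.69 given above.

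Plxna2, a receptor for class 3 and class 6 semaphorins, had values of 0.16 and 0.55, then 0.67 and 0.88, and 1.38 and 1.39 over both steps. All these gene means were above 0, and those of the 2 direct arrays of the whole interval lay 0.01 apart. Single spots lay further apart on these arrays, 1 at 1.68 and 2.13 and another at 1.59 and 1.09. The remaining spot was below 0 in the first step, at -0.16 in the fit. The fit was 1.30 ± 0.11 (2.47-fold higher), from 3 spots at 0.87, 1.32 and 1.72. Plxnc1, the receptor of Sema7a, had 0.76 and 0.98 for the first step, 0.41 and 0.03 for the second, and 1.19 and 1.46 over both. The fit over both was 1.28 ± 0.12 (2.43-fold higher). The 2 spots of Plxnc1 placed the difference in different steps: one had 0.58 and 1.17, the other 1.47 and -0.66. The second of these lacked a value on 1 array of the first step, and the first-step fit of 1.03 lay above both direct means.

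Plxnb2, a receptor for class 4 semaphorins, differed more between its arrays. Its direct arrays read 0.55 and 1.83 over the whole interval, around a fit of 1.07 ± 0.29 (2.11-fold higher). They read 0.09 and 0.54 for the first step and 0.49 and 0.57 for the second. One of its 2 spots read -0.16 on the first array and 3.42 on the second. Without the second array of the whole interval the gene fell under 2-fold. Among the other plexins, Plxna1 had 0.44 ± 0.09, Plxna3 0.35 ± 0.13, Plxna4 -0.01 ± 0.18, Plxnb1 -0.64 ± 0.14 and Plxnb3 0.02 ± 0.07. The value of Plxna4 averages spots of opposite sign, one not dim at -0.95 and one dim at 0.93. The spots of Plxna1 read 1.055 and -0.176, and those of Plxnb1 -1.125 and -0.145, none of them dim.

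The neuropilins, co-receptors that bind class 3 semaphorins, stayed under 2-fold as means over their spots. Nrp1 had -0.42 ± 0.23, 0.99 ± 0.23 and 0.57 ± 0.23 in the first step, the second and over both. Its only spot that was not dim read -1.01 in the first step and 1.03 in the second, past 2-fold in both as for Sema3b and Unc5b. By contrast, its 2 dim spots read 0.93 and -0.45, and -1.18 and 2.38. Without dim spots 3 members in place of 2 were 2-fold lower in the first step. Nrp2 had 0.35 ± 0.16 over both steps.

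**Figure D2:**
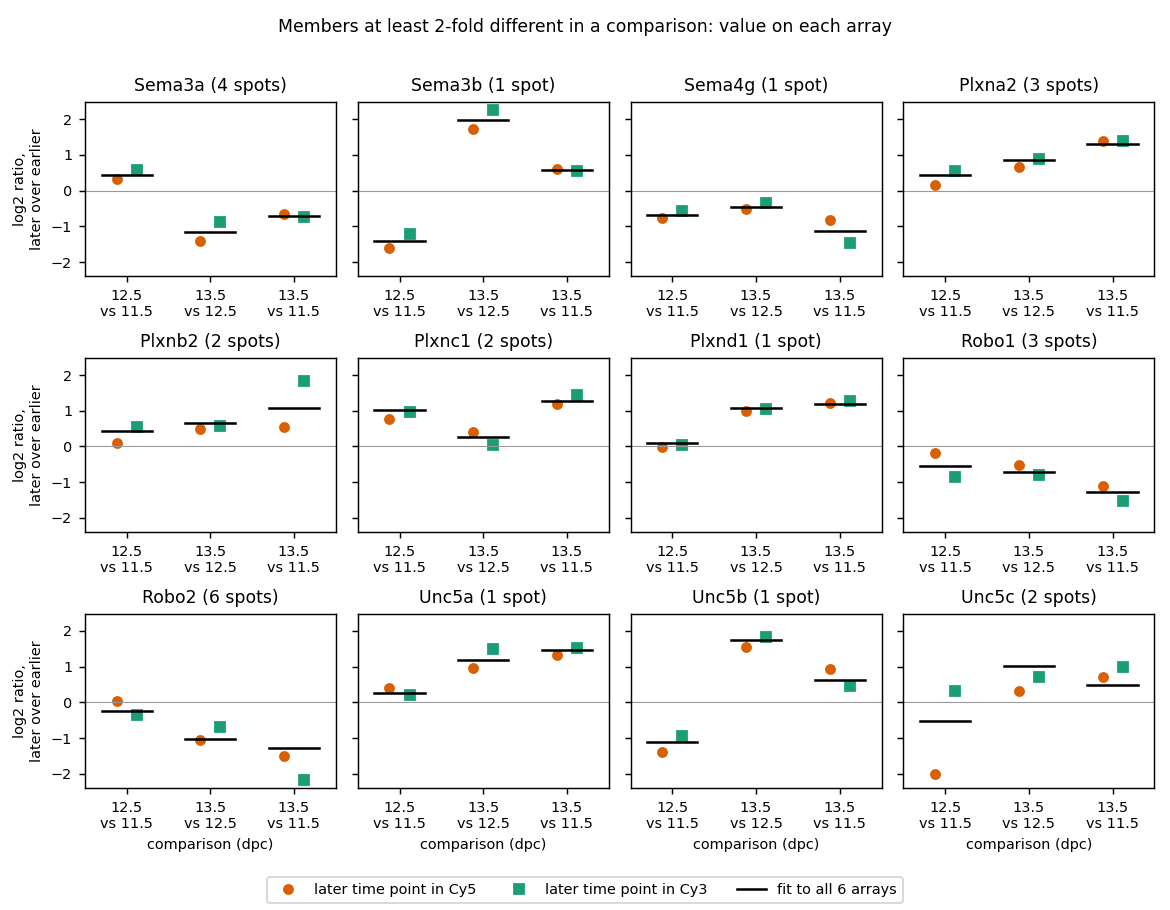
Log2 ratio (vertical axis, later over earlier time point) on each array for the 12 genes that were at least 2-fold different in a comparison, with circles for arrays that had the later time point in Cy5, squares for Cy3 and a black line for the fit to all 6 arrays. For Sema3b the values run from -1.60 to 2.26 with the same sign on both arrays of each comparison, whereas for Plxnb2 the direct arrays of the whole interval stand at 0.55 and 1.83.

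The slit receptors were lower in the cartilage anlagen. Robo1 and Robo2 are adjacent on chromosome 16 and both bind slits. Robo1 had -1.11 and -1.52 over the whole interval, -0.17 and -0.86 for the first step, and -0.53 and -0.81 for the second. Every array was below 0, and the fit over both steps was -1.27 ± 0.18 (2.41-fold lower). Its spots at -1.99 and -1.74 stood apart from the remaining one at -0.08.

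Robo2 had -1.51 and -2.18 over the whole interval, 0.04 and -0.35 for the first step, and -1.06 and -0.70 for the second. The second step was fitted at -1.03 ± 0.26 (2.04-fold lower), a value that was under 2-fold in 5 of 16 alternative settings (the 3 arrays with the later time point in Cy3 alone, the median over spots, and leaving out either array of the whole interval or the first array of the second step), and the whole interval came to -1.28 ± 0.26 (2.44-fold lower). Its 6 spots were all below 0 over the interval, from -2.62 to -0.27, and of those nearest 0 one was dim and one had a value on 3 arrays. Robo4, the Robo of endothelial cells, which the naming rule did not take, had -1.27 from 1 spot. Of the neuronal markers 8 of 11 and of the endothelial markers, a list that holds Robo4, 9 of 12 were below 0 over the same interval, with medians of -0.24 and -0.69.

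The slits themselves were not 2-fold different. Slit3 had 0.93 ± 0.09 over both steps, with 1.15 and 0.75 on the direct arrays and spots at 1.43, 1.16 and 0.20. Slit1 had 0.40 ± 0.07. Slit2 had -0.45 ± 0.26 as the mean of 6 spots, of which 3 were dim. One Slit2 spot, not dim, read -1.63 and -1.84 on the direct arrays and -1.67 in the fit (3.19-fold lower), while the other 5 ran from -0.60 to 0.35.

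All 3 netrins were below 0 over the whole interval, each under 2-fold. Ntn4 had -0.54 ± 0.23 from 1 dim spot, Ntn3 -0.17 ± 0.15, and Ntn1 -0.35 ± 0.36. The 2 spots of Ntn1, the netrin best known for attracting commissural axons, were both dim and disagreed, at 0.80 and -1.50. The direction of Ntn1 was therefore not settled by these arrays.

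The netrin receptors, in a list that also holds their relative Unc5cl, had a median of 0.49 over 7 genes, with 6 above 0. The gene below 0 was Unc5cl. Unc5a, a receptor of repulsion, had the largest fitted value of the 46 genes over the whole interval. Its arrays read 0.39 and 0.22 for the first step, 0.96 and 1.50 for the second, and 1.33 and 1.51 over both. All lay above 0, and the fit was 0.27 ± 0.12, 1.19 ± 0.12 (2.28-fold higher) and 1.46 ± 0.12 (2.75-fold higher) from 1 spot that was not dim.

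Unc5c passed 2-fold in the second step at 1.01 ± 0.56, the largest technical SE of the members. Its gene means read 0.31 and 0.70 for that step, -2.00 and 0.33 for the first, and 0.72 and 1.00 over both. The value rests on a dim spot with a value on 4 of the 6 arrays, which read 1.47 in the fit. The other spot, with a value on all 6 arrays, read 0.55. Unc5d had 0.74 ± 0.15 over both steps, all of it in the first, at 0.73 ± 0.15. One of its 2 spots was dim and read 1.02 in the first step. The other read 0.44 there, from arrays of opposite sign at 1.17 and -0.21.

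Dcc, the receptor of attraction, was highest at 12.5 dpc, with 0.97 ± 0.16 in the first step and -0.48 ± 0.16 in the second, and 3 of its 4 spots were dim. Its spot that was not dim had 0.81 and -0.68. Neo1, which also binds repulsive guidance molecules, had 0.17 ± 0.09. Unc5cl, a relative of the Unc5 receptors with 1 dim spot, had -0.43 ± 0.22, and Unc50 had 0.02 ± 0.25.

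**Figure D3:**
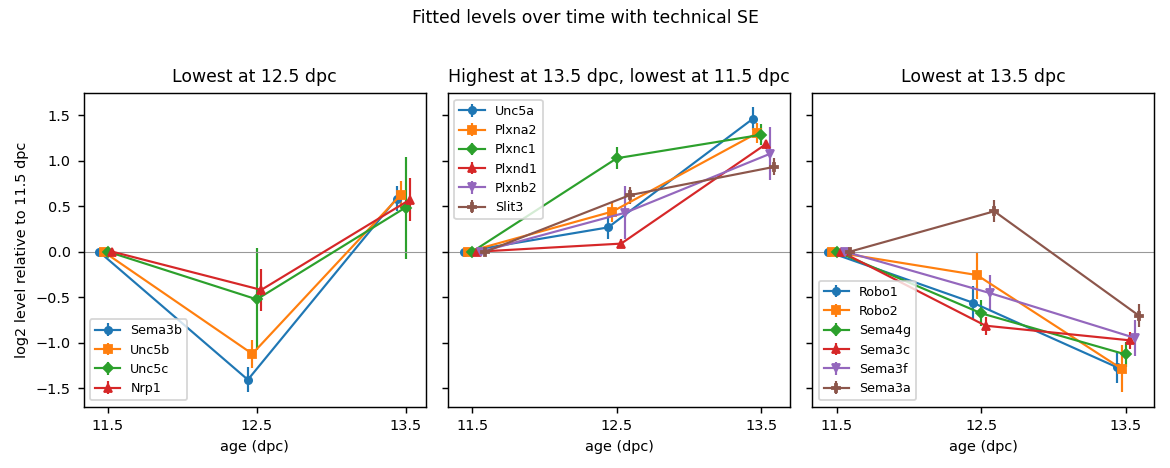
Fitted log2 level relative to 11.5 dpc (vertical axis) against age in dpc for 16 guidance genes in 3 panels by course, with the technical SE as bars at 12.5 and 13.5 dpc. Sema3b and Unc5b stand at -1.41 and -1.12 at 12.5 dpc, Unc5a reaches 1.46 and Robo2 -1.28 at 13.5 dpc.

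Across all members, 25 of 46 were highest at 13.5 dpc, 12 at 11.5 dpc and 9 at 12.5 dpc. The lowest value fell at 11.5 dpc for 19, at 13.5 dpc for 16 and at 12.5 dpc for 11. The 34 genes that were under 2-fold throughout ran from -0.97 to 0.93 over the whole interval, from -0.81 to 0.97 in the first step and from -0.79 to 0.99 in the second. The technical SE of a member had a median of 0.15 and ran from 0.05 to 0.56. Both direct arrays had the same sign for 34 of 46 members over the whole interval, 32 in the first step and 35 in the second. The shares over all genes are not given for the time points or for the agreement in sign between direct arrays. These counts therefore describe the members and do not set them apart from other genes.

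Spots of the same gene disagreed in part. Of the 29 members with more than 1 spot, 10 had spots on both sides of 0 over the whole interval, 14 in the first step and 15 in the second. The share over all genes with several spots is not given, so this is not read as particular to the members. Averaging can hide a single spot, so spots were also counted on their own, a count added after the gene values were seen. Of the 98 member spots, 2 were 3-fold higher at 13.5 than at 11.5 dpc, 1 each of Plxna2 and Plxnc1 (3.23% of all annotated spots were), and 5 were 3-fold lower, 2 each of Robo1 and Robo2 and 1 of Slit2 (4.0% of all spots). In the first step 1 spot, of Dcc and dim, was 3-fold higher (1.72% of all spots) and 0 were 3-fold lower (0.58% of all spots). In the second step 3 were 3-fold higher, those of Sema3b and Unc5b and a dim one of Nrp1 (1.86% of all spots), and 2 were 3-fold lower, of Robo2 and Sema3a (1.29% of all spots).

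Dim spots also sat at another level than the rest. In the first step the median of dim spots was 0.47 and that of other spots -0.21 over all annotated spots, and 0.48 and -0.01 over member spots. In the second step these medians were -0.26 and 0.05 over all annotated spots, and -0.29 and 0.04 over member spots. The lower value of Sema3b and Unc5b at 12.5 dpc came from spots that were not dim, whose median lay at -0.21.

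**Figure D4:**
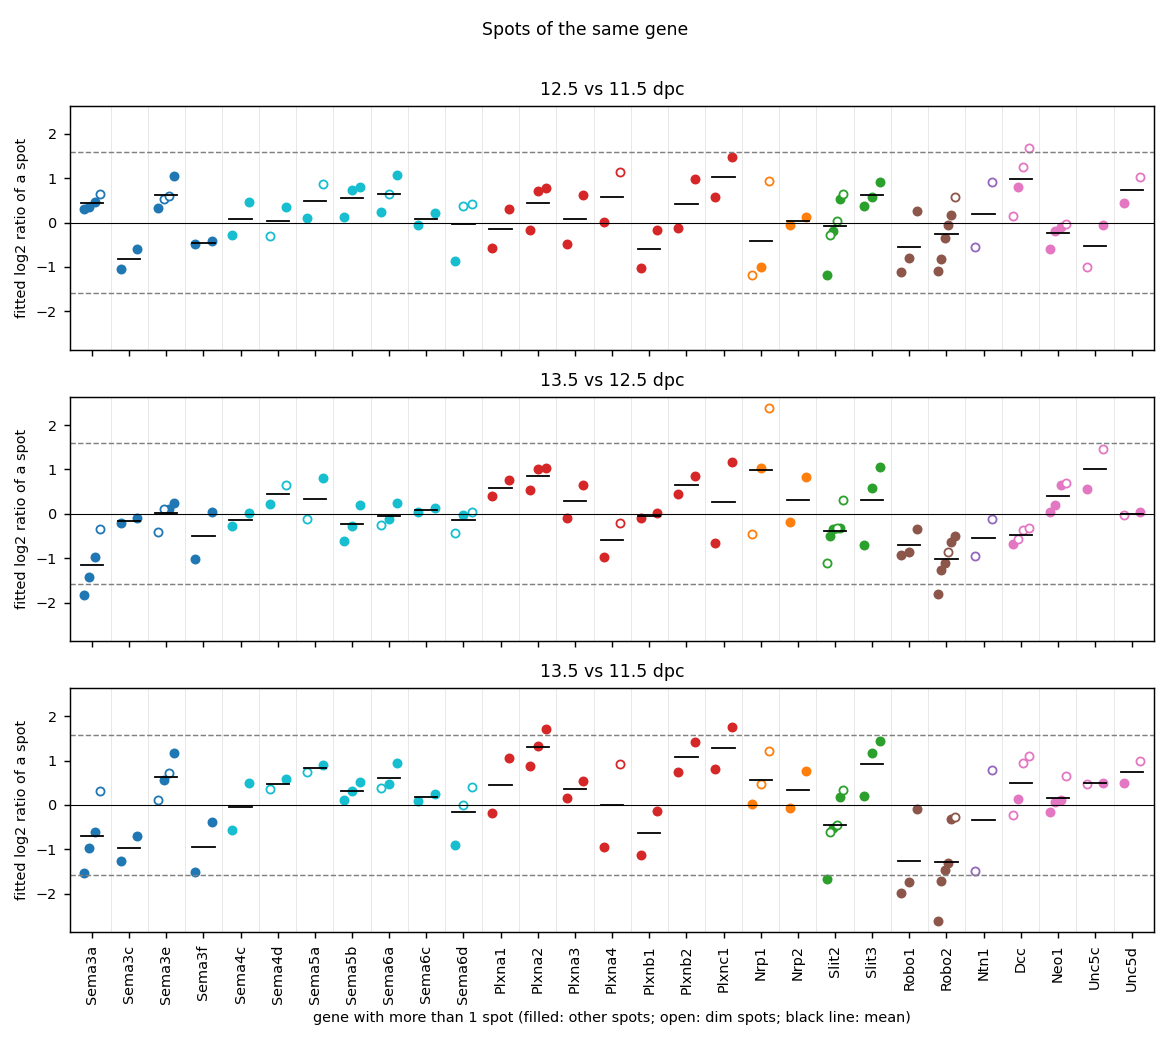
Fitted log2 ratio (vertical axis) of each spot for the 29 members with more than 1 spot, in the 3 comparisons, with open circles for dim spots and black lines for the gene means. Dashed lines mark 3-fold. The 6 spots of Robo2 are all below 0 over the whole interval, whereas the 2 dim spots of Ntn1 stand at 0.80 and -1.50.

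Genes that act with these receptors but lie outside the naming rule were counted in the same way. Of 40 measured intracellular effectors (42 listed), 2 were higher and 1 was lower by 3-fold or more over the whole interval (2.93% and 2.57% of all genes), and the median was -0.16. In the first step their median was -0.37, against -0.01 over all genes, with 30 of 40 below 0 (9686 of all 19077 genes). Their median in the second step was 0.17, and 6 of 40 were 2-fold higher (4.79% of all genes). The 3-fold higher ones over the whole interval were Dpysl3, of the collapsin response mediator proteins that act after semaphorin signals, and Pak3, a kinase regulated by Rac and Cdc42. Dpysl3 read 2.94 and 2.19 on the direct arrays, with a fit of 2.56 (5.90-fold). Pak3 had 1.65 as the mean of spots at 0.22 and 3.08. The 3-fold lower one was Crmp1, of the same family as Dpysl3, which read -2.29 and -2.84 with a fit of -2.49 (5.62-fold lower). Relatives in 1 family thus stood in opposite directions, each on both arrays and from 1 spot. Of 20 other ligands and co-receptors, 0 reached 3-fold over the whole interval.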

How the data were processed

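Tissue was dissected from cryosections, and RNA was amplified and hybridised to Agilent arrays. The authors scanned them, quantified spots with GenePix Pro and describe print-tip loess. The deposited values are log2 ratios of Cy5 over Cy3. The values do not show the loess step, since array medians ran from -0.355 to 0.725. Depth does not apply to arrays, and 6 arrays of 3 pools limit the precision. Intensities were not used here.

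Absolute values above 16 were set to missing, arrays were centred on their medians, and each was turned by its labelled dyes to later over earlier. Differences against 11.5 dpc were fitted by least squares (Python 3.11.15, numpy 2.4.6, pandas 2.3.3), and all spots of a gene were averaged. The technical SE has 4 residual degrees of freedom. Members at least 2-fold different in a comparison were named with each array. The code was tested on simulated data. The members, lists and centring were chosen with earlier results of these data known. Per array 136 to 1905 spots lacked a value. The RefSeq table matched 46 of 46 members. Alternatives were other centring, scaling, array subsets, dye terms and spot rules.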

Additional observations from a re-analysis of the deposited data

How the results depend on the processing

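Results were recomputed under 16 alternative settings. The 18 values of 2-fold or more kept their sign in every one, and of 288 such values 237 moved by less than the SD between the paired direct arrays of that gene, 51 moved by more and 0 reversed. This SD is not the technical SE. Sema3b and Unc5b in the second step, Plxna2, Plxnc1, Plxnd1, Robo2 and Unc5a over the whole interval, and Sema3a in the second step stayed past 2-fold in all 16, and Unc5c in 4 (0.38 to 1.99). Plxnc1 in the first step stayed in 8 (0.53 to 1.63) and Robo2 in the second in 11 (-1.38 to -0.95).

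The count of members 3-fold higher at 13.5 than at 11.5 dpc was 1 in place of 0 without centring, with the direct arrays or the indirect path alone, with dye combination 2 (later time point in Cy3) alone and with spots that had a value on every array. The count 3-fold lower was 1 with the direct arrays, the indirect path, the median over spots and spots with a value on every array. In the first step 1 was higher with the indirect path or dye combination 2, and 1 was lower with dye combination 1. In the second step 1 in place of 2 was higher without centring. Leaving out 1 array at a time left each 3-fold count as it was, except that 3 members in place of 2 were higher in the second step in 1 of the 6 cases (without the Cy5 array of that step). The 2-fold counts moved more. Without centring they were 7 in place of 5 higher and 2 in place of 3 lower over the whole interval. In the second step 3 in place of 2 were lower without centring, and the other counts without centring were given above with the 2 steps. Dye combination 1 alone gave 8 in place of 5 higher and the direct arrays 5 in place of 3 lower over the whole interval. Among the other settings with centring, the first-step count higher ran from 0 to 3 and the second-step count lower from 1 to 4. Without the Cy3 array of either step, 5 members in place of 3 were lower over the whole interval. Within the ranges just given, each array except that of the first step with the later time point in Cy3 moved at least 1 of the step counts by over 1.5 times when left out.

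Without centring the member medians were 0.45 over the whole interval, 0.49 in the first step and -0.19 in the second, as those of all genes moved to 0.24, 0.44 and -0.32. Without dim spots the last was 0.20 (42 genes). With centring, the first-step median of 0.04 ran from -0.04 on the indirect path, where its sign turned, to 0.08 with dye combination 2 or, leaving out 1 array at a time, from 0.03 to 0.08. A shift of a median was counted against the spread between paired arrays pooled over the 3 comparisons. This yardstick was adopted after the shifts were seen, in place of the spread of each pair, and by the first yardstick the first-step median also moved when scaled (0.03), on the direct arrays (0.05), with dye combination 1 (0.03), by the median over spots (0.06), without dim spots (0.01) and with spots on every array (0.03). A term for the dye combination (replicate block) changed no call and gave first-step median 0.04. The numbers pair arrays only by dye, since each comparison uses the same pools.

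The cause of these shifts was not tested. With 1 pool per time point, differences between embryos cannot be told apart from differences between time points.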
